A study of Paxillus involutus and Laccaria bicolor with 24 samples.

Results

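These are 100 gene models of the ectomycorrhizal fungus *Paxillus involutus* whose expression was highest during active growth and dropped when ammonium ran out. This holds for counts scaled by the library total, and most of the movement of the whole time course was made in that first step. They were taken from the 12032 models whose count averaged 11 or more per library, out of 17968 models in the *P. involutus* table and 41098 in both tables of the series. The level of a model at a time point was log2(mean CPM + 1), where CPM is a count divided by the library total and multiplied by 1000000. A model had the required shape when its decrease from t1 to t2 made up more than 0.6 of the summed absolute steps from t1 to t4, and 392 models (3.26% of those tested) had it. The 100 of these with the largest gap between t1 and the highest of the later time points are the members. The list depends on the normalization. With factors deposited by the authors for transcript length, G/C content and depth, the rule chose 31 of the 100 again. The members were thus chosen by their measured levels at all 4 time points, so their changes over time are a description. Calls by a test fitted to all models are given only to set the size of a change against the spread between libraries, and they are no independent evidence of the changes.

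*P. involutus* (Batsch Fr., strain ATCC 200175) was grown as mycelium in liquid minimal medium on glass beads, kept without nitrogen for a day, and then given a hot-water extract of forest soil organic matter with added glucose. RNA was sequenced on day 2 (t1, active growth, glucose and ammonium present), day 5 (t2, ammonium depletion), day 9 (t3, glucose depletion) and day 13 (t4, prolonged glucose depletion), with 3 biological replicates each. All 12 libraries came from 1 strain in 1 medium, and every culture sampled after t1 was both depleted and older, so ammonium depletion and time on the extract cannot be told apart. The libraries held 9843577 to 13595446 counted reads and 0 replicate pairs had identical counts. The model names matched 0 entries of the reference gene table, so no function is given to any member and the fungus was not checked against marker genes.

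Ectomycorrhizal fungi live on the roots of trees, from which they receive sugar, and bring nitrogen from the soil in return. Fungi generally take up ammonium ahead of other nitrogen sources. In the yeast *Saccharomyces cerevisiae* the loss of a preferred nitrogen source is known to lower the expression of the genes for ribosomes and growth and to release genes for the use of poorer sources. This is background on the nutrient step and not a statement about the members.

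The median level over the members was 609.2 CPM during active growth, 275.3 CPM at ammonium depletion, 261.3 CPM at glucose depletion and 219.3 CPM at the end. The median share of its own t1 level that a member kept was 46.3% at t2 and 34.7% at t4. The members were lowered and not switched off, since 0 of the 100 had a library without a count, and the lowest count of any member in a t2 library was 11. The lowest count in any library was 1, at t3. In 96 members the t1 mean was at least 2 times the t2 mean, in 14 at least 3 times, in 10 at least 4 times and in 2 at least 8 times. The interquartile range of the decrease was 2.07-fold to 2.38-fold, and 78 of the 100 lay between 1.9-fold and 2.5-fold.

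**Figure D1:**
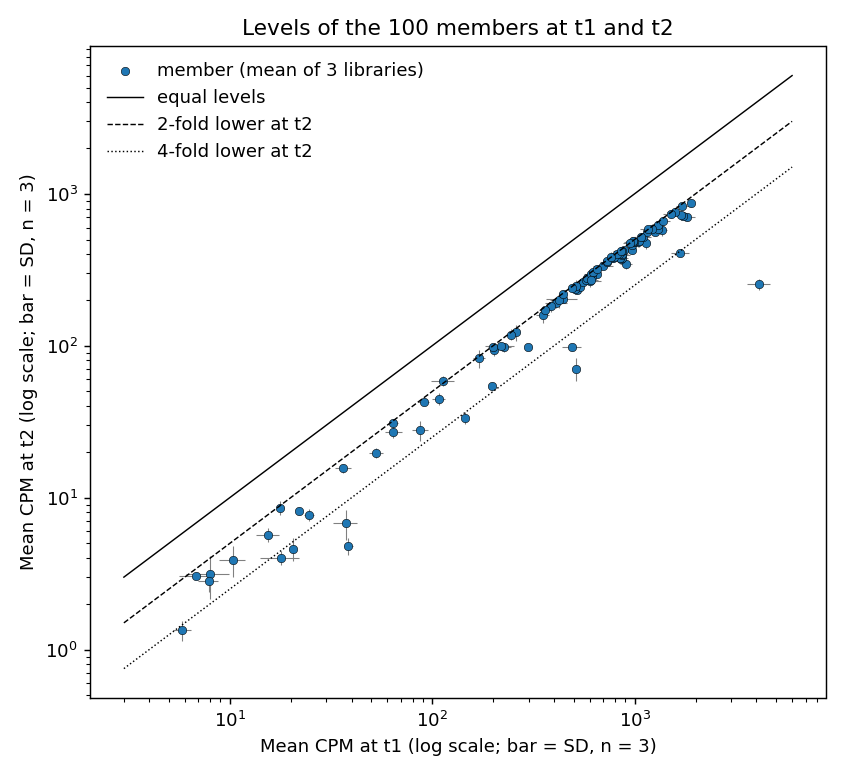
Mean CPM of each of the 100 members at t1 (horizontal, log scale) and t2 (vertical, log scale), with SD bars over 3 libraries and lines for equal, 2-fold lower and 4-fold lower levels. The 78 members between 1.9-fold and 2.5-fold lie along the 2-fold line at t1 levels from 6.79 to 1904 CPM, and 10 lie on or below the 4-fold line, the most abundant of them at 4129 CPM.

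In every member the lowest t1 library lay above the highest of the 9 later libraries, by at least 1.57 times and by 1.90 times in the median member. Over all tested models 9.38% had t1 libraries above all others. All 100 were called lower at t2 than at t1 by the quasi-likelihood test of edgeR at a false discovery rate of 1%, against 18.0% of the tested models, and nothing is read from this count because the rule used the same contrast. The median fitted change was -1.27 on the log2 scale after TMM scaling (range -4.19 to -1.11), against 0.00 over all tested models. Without that scaling the median step from t1 to t2 was -1.11 over the members and 0.15 over all tested models, so that the zero line of CPM lay 0.15 above that of TMM at this step.

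The 12 libraries can also be divided so that the choice and the measurement do not share a library. The rule was applied to the 8 libraries of 2 replicate numbers, and the 100 models it then took were measured in the 4 libraries of the third number. With replicate 1 left out, the median step from t1 to t2 of the chosen models was -1.10 in the libraries used and -1.09 in those left out. With replicate 2 left out it was -1.16 and -0.998, and with replicate 3 left out -1.03 and -1.18. In each of the 3 cases t1 was the highest of the left-out libraries in all 100 models, against 17.1% to 18.4% of the tested models, and the smallest decrease of any chosen model was -0.46. Between 88 and 94 of the models chosen in this way were among the members. The left-out libraries are replicates of the same time points. These values thus describe how far replicates agreed in CPM and are no independent evidence of the changes.

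Depletion of ammonium came before that of glucose at t3, and t4 followed a longer time without glucose. The later time points show what followed the fall. From t2 to t3 the median member moved by -0.14 and from t3 to t4 by -0.28 on the log2(mean CPM + 1) scale, against 0.07 and 0.03 over all tested models. The rule itself limits the size of these later steps, and a ranking on the highest later level places models that rise after t2 lower, so neither the size nor the direction of the later calls is read against the tested models. A total of 73 members were lower at each of the 3 steps, 80 had their lowest mean at t4, 13 at t3 and 7 at t2. By edgeR's test 47 members were called lower and 4 higher at t3 than at t2 (19.1% and 18.6% of the tested models), and 63 lower and 2 higher at t4 than at t3 (13.3% and 11.8%). Over both steps together, 83 were called lower and 5 higher at t4 than at t2 (28.1% and 27.7%). The count of 47 was 31 without replicate 1 of t2, 23 without replicate 2 of t2 and 24 without replicate 3 of t3. The highest share of the t1 mean left at t4 was 52.3%, a limit that the smallest gap of the list sets. All 100 were called lower at t4 than at t1 (30.5% of the tested models), and nothing is read from this count either. With factors deposited by the authors for transcript length, G/C content and depth 95 were called lower (28.6%), and the fitted log2 changes of the members reached up to 0.20.

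**Figure D2:**
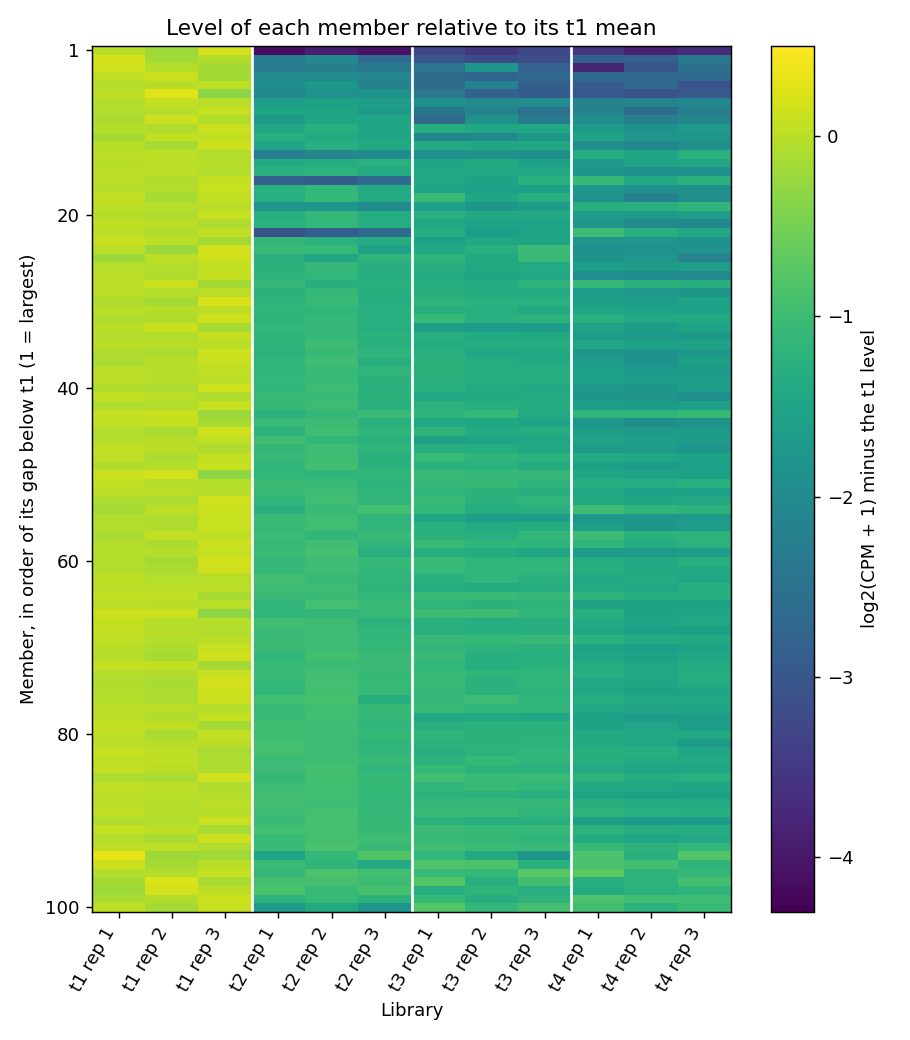
Level of each member (rows, ordered by the gap between t1 and the highest later time point) in each of the 12 libraries (columns), as log2(CPM + 1) minus the t1 level of that member. The t1 columns stand apart from the 9 others in all 100 rows, and the rows of place 16 and 22 are lower at t2 than at t3 and t4.

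The share of the reads that fell on the members dropped in the same step. Of all counted reads, 6.85%, 6.66% and 7.09% fell on the 100 members in the 3 t1 libraries, 2.92%, 3.10% and 2.796% at t2, 2.78%, 2.64% and 2.65% at t3, and 2.32%, 2.17% and 2.22% at t4. The mean share was thus 6.87% ± 0.21 at t1 and 2.94% ± 0.15 at t2 (SD, n = 3). The t1 libraries did not overlap with any later library, and the t4 libraries lay below all t3 libraries. Without the most abundant member the shares were 6.45% ± 0.16 and 2.91% ± 0.15 (SD, n = 3). These are shares of reads from whole mycelium, so fewer transcripts per cell and fewer cells holding them cannot be told apart.

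**Figure D3:**
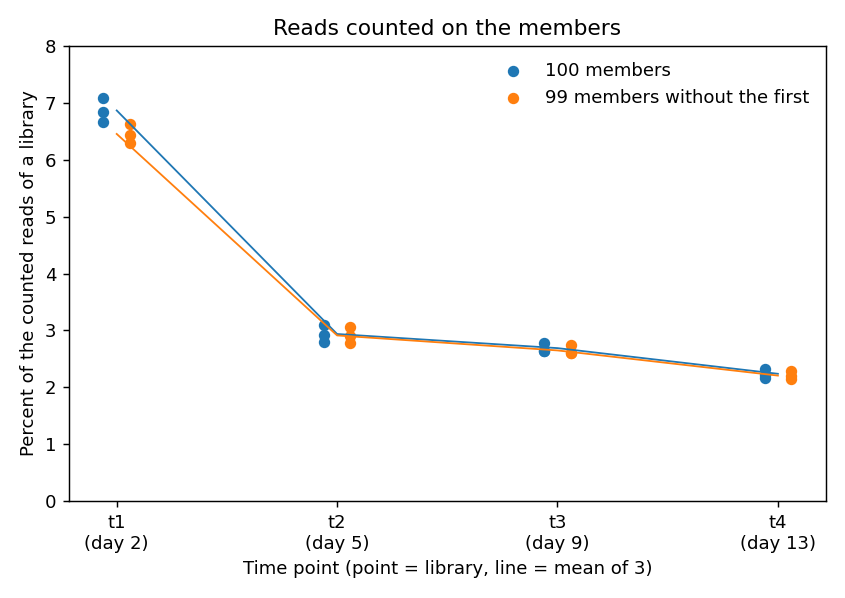
Percent of the counted reads of each library that fell on the 100 members, and on 99 members without the first, at t1 to t4 (points are libraries, lines join the means of 3). The share was between 6.66% and 7.09% at t1 and between 2.796% and 3.10% at t2, and 2.17% to 2.32% at t4.

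The members were abundant as a group. At t1, 60 of them had a mean of at least 500 CPM, as did 287 of the 12032 tested models (2.39%), so that 20.9% of the models at this level were members. The median tested model stood at 28.2 CPM at t1. In the order of abundance the median place of the members was 215 at t1. It was 621 and 693 at the next time points and 924 by t4. The other 227 models with at least 500 CPM at t1 had a median step of -0.13 from t1 to t2, and 140 of them had a negative one. The 292 models that had the shape but a smaller gap stood at a median of 69.9 CPM at t1, with 18 of them at 500 CPM or more. CPM does not correct for transcript length, so these are orders of read counts and not of molecules. The rule used the t1 level, its pseudocount holds models of low level back, and it took models that fell. The level of the members at t1 and their later places are thus a description of the choice.

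The spread of the decrease differed with the level. The 60 members with at least 500 CPM at t1 fell a median of 2.11-fold, with an interquartile range of 2.06-fold to 2.25-fold and a full range of 1.98-fold to 16.3-fold, the widest of the 3 classes through gm1.13900_g. Of these 60, 54 were lower at each of the 3 steps and 57 were called lower at t4 than at t2. The 21 members between 100 and 500 CPM fell a median of 2.16-fold, with an interquartile range of 2.08-fold to 2.32-fold and a full range of 1.93-fold to 5.05-fold, and 16 of them were called lower at t4 than at t2. The 19 members under 100 CPM fell a median of 2.68-fold, with an interquartile range of 2.35-fold to 3.76-fold and a full range of 2.05-fold to 8.05-fold, and 10 of them were called lower at t4 than at t2. Counting error is larger at low counts, and the pseudocount of 1 CPM holds the smallest members back in the order. A model of low level thus needs a larger ratio to reach the same gap. Whether this accounts for the larger median decrease under 100 CPM was not tested. Over all tested models 28.1% were called lower at t4 than at t2, and the classes were not set against tested models of their own level. With the authors' factors 49 of the 100 members were called lower there, against 83 with TMM.

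Second in abundance at t1 was the member in place 39. It had 1901, 1885 and 1927 CPM in the t1 libraries, 877, 924 and 821 at t2, 798, 762 and 768 at t3, and 664, 627 and 617 at t4. The libraries of t1, t2 and t4 did not overlap with each other in any pair, and those of t3 lay between those of t2 and t4. It fell 2.18-fold at t2, with a fitted log2 change of -1.29 (standard error 0.06). The member in place 12, the third most abundant, had 1792, 1665 and 1998 CPM at t1 and 661, 748 and 694 at t2, and then 702, 668 and 677 at t3 and 484, 438 and 477 at t4. Its t2 and t3 libraries overlapped in CPM. With TMM its second decrease fell between t3 and t4, with log2 changes of -0.11 from t2 to t3 and -0.59 from t3 to t4. With the authors' factors these were -0.57 and -0.09, and neither was called. From t2 to t3 the member in place 39 moved by -0.24 with TMM and by 0.34, not called, with the factors.

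The members moved together across the libraries. The correlation of the log2(CPM + 1) values of a member with the mean of the other 99 over the 12 libraries had a median of 0.99, and it was at least 0.95 in 87 members and below 0.8 in 2. The points share their libraries and the members were chosen for a common shape, so this describes the group only. The coefficient of variation among the 3 t1 libraries had a median of 6.51% in the members and 7.53% in all tested models, and the highest in any member was 24.1%, in place 94. That member had 10.2, 6.88 and 6.84 CPM at t1, from counts of 119, 72 and 93, and 2.13, 3.16 and 4.13 CPM at t2.

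The largest gap belonged to gm1.13900_g. It had 4064, 3639 and 4683 CPM in the t1 libraries and 238, 276 and 247 at t2. At t3 it had 423, 358 and 432 CPM, and at t4 343, 281 and 322. The t1 libraries lay at least 8.42 times above every later one, the t3 libraries lay above all t2 libraries, and t4 overlapped with neither. Its mean was 4129 ± 525 CPM at t1 and 254 ± 19.95 at t2 (SD, n = 3), a 16.3-fold decrease with a fitted log2 change of -4.19 (standard error 0.11). It was in place 6 of all tested models at t1, in place 704 at t2 and in place 528 at t4. It took 0.41% of the counted reads at t1 and 0.03% at t2.

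The second largest gap was that of estExt_Genemark1.C_170031, a model of moderate level. It had 42.9, 33.4 and 35.8 CPM at t1, from 502, 350 and 487 counts. At t2 it had 6.91, 8.19 and 5.20 CPM, at t3 3.72, 3.14 and 3.30, and at t4 4.40, 4.497 and 6.499. The t3 libraries lay below all t2 libraries, and those of t2 and t4 overlapped. The mean fell 5.53-fold from t1 to t2, with a fitted log2 change of -2.64 (standard error 0.15).

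The members that rose again were few. Of the 5 called higher at t4 than at t2, gm1.16990_g and gm1.16831_g had the largest change. The model gm1.16990_g had 39.1, 36.5 and 40.2 CPM at t1, 4.57, 4.34 and 5.47 at t2, 13.9, 12.8 and 15.7 at t3, and 17.3, 13.9 and 15.7 at t4. Its libraries at t3 and t4 overlapped and lay above all of t2 and below all of t1. It fell 8.05-fold and then stood at 40.4% of its t1 mean at t4, with a fitted log2 change from t2 to t4 of 1.58 (standard error 0.13). The model gm1.16831_g followed the same course at a higher level, with 521, 493 and 526 CPM at t1, 59.1, 69.8 and 83.0 at t2, 207, 165 and 180 at t3, and 259, 208 and 189 at t4. It fell 7.26-fold and was at 42.6% of its t1 mean at t4, with a fitted log2 change from t2 to t4 of 1.51 (standard error 0.12). The 4 members called higher at t3 than at t2 were these 2, gm1.13900_g and the member in place 100.

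**Figure D4:**
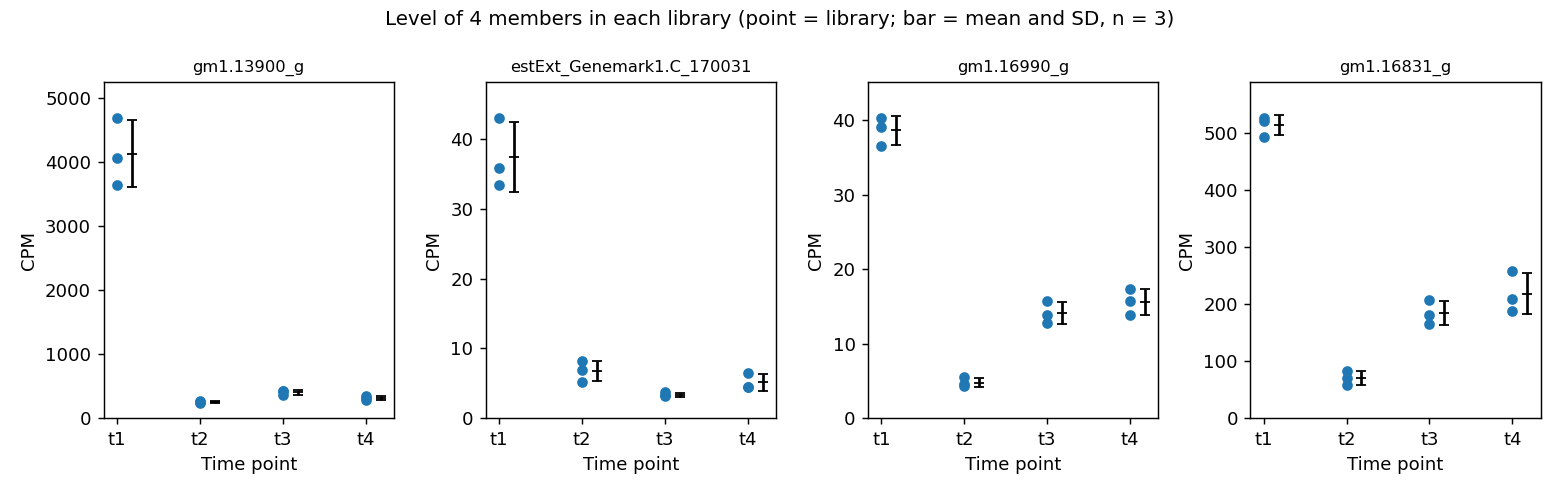
CPM (linear axes from 0) of gm1.13900_g, estExt_Genemark1.C_170031, gm1.16990_g and gm1.16831_g in each library at t1 to t4, with the mean and SD of 3 libraries beside the points. In all 4 the t1 libraries lie above all others, and in the last 2 the t3 and t4 libraries lie above those of t2, at 40.4% and 42.6% of the t1 mean at t4.

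The other 3 members called higher at t4 than at t2 were in places 13, 19 and 100. The member in place 13 had 148, 148 and 140 CPM at t1, 30.4, 33.6 and 36.7 at t2, 38.3, 40.3 and 38.6 at t3, and 57.2, 51.4 and 61.2 at t4. Its later libraries lay in the order of their time points with no overlap. The member in place 19 went from 200, 193 and 197 CPM at t1 to 55.7, 57.0 and 49.6 at t2 and reached 79.9, 79.8 and 87.7 at t4. With the normalization factors of the authors places 16, 19 and 22 were still called higher and places 13 and 100 were not.

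Other members kept falling or were uneven after t2. The member in place 4 had 1723, 1827 and 1491 CPM at t1, 417, 415 and 395 at t2, 275, 248 and 265 at t3, and 269, 257 and 265 at t4, so that it reached its lower level at t3. The member in place 6 had 18.2, 21.8 and 14.1 CPM at t1 and 3.56, 4.24 and 4.30 at t2, and kept 7.39% of its t1 mean at t4, the lowest share of all members. The member in place 3 had 550, 481 and 444 CPM at t1, 95.7, 103 and 93.5 at t2, 90.9, 143 and 70.6 at t3, and 34.3, 58.1 and 84.3 at t4. Its 3 libraries at t4 differed by more than its means at t2 and t4 did. The least abundant member, in place 9, had 63, 68 and 76 counts at t1, 11, 15 and 16 at t2, 1, 9 and 4 at t3, and 8, 5 and 6 at t4.

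At the edge of the list the members just inside had gaps of 0.936, 0.932 and 0.932, and the models just outside had 0.931, 0.930 and 0.922 on the log2(mean CPM + 1) scale. The last member had means of 87.5, 27.9, 45.4 and 41.1 CPM from t1 to t4. The first model outside had 508, 266, 234 and 213 CPM, so the border runs between models of nearly the same gap. A gap at least as large as that of the last member was found in 131 tested models. The 31 of these without the shape had median steps of -1.19, -0.67 and -0.34, and 20 of them were lower at both later steps.

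How far the members fell depended on the normalization. The authors deposited a factor per model and library that adjusts for transcript length, G/C content and depth. From t1 to t2 the log2 factor moved by a median of -0.46 in the members (interquartile range -0.74 to -0.12) and by -0.01 in all tested models (interquartile range -0.12 to 0.09). In the 60 members with at least 500 CPM at t1 the median was -0.53, and in the other 227 models at that level it was -0.08. Members between 100 and 500 CPM had a median of -0.35, and those under 100 CPM had -0.39. The factor was lower at t2 in 83 of the 100 members. The fitted decrease was smaller with the factors than with TMM in 81 members and larger in 19. With these factors in edgeR the median fitted change from t1 to t2 was -0.95 and 91 members were called lower (15.1% of the tested models), 48 of them by at least 2-fold. The 9 others had 352 to 1739 CPM at t1 and fitted changes between -0.36 and 0.23, 4 of them above 0, against a median of -1.29 with TMM. In the authors' regularized log values 95 members were highest at t1, and the median step to t2 was -0.55. The factors come from the same counts, and whether length, G/C content or abundance sets their shift was not tested.

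**Figure D5:**
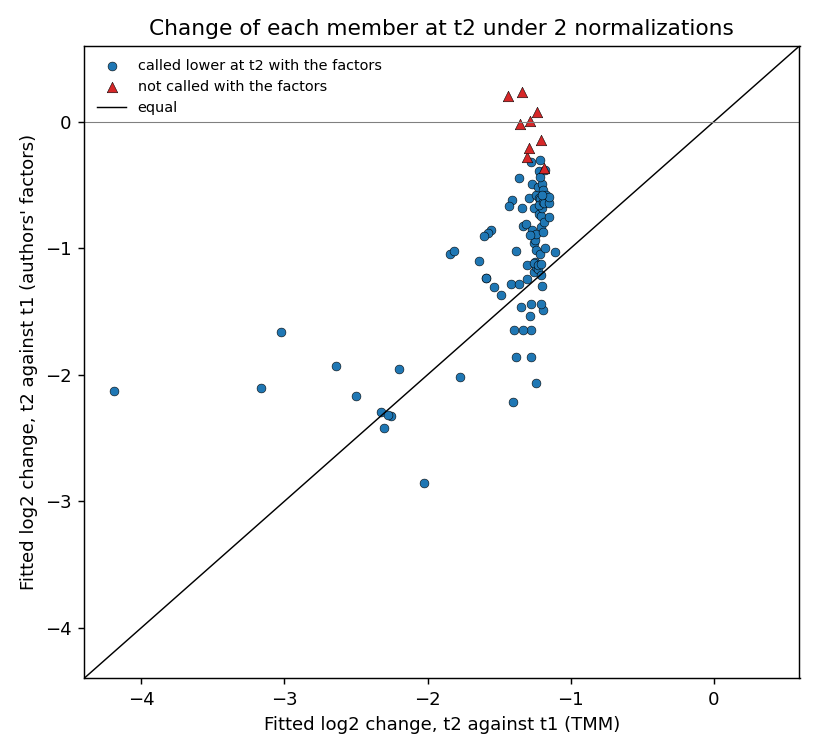
Fitted log2 change of each member from t1 to t2 with TMM scaling (horizontal) and with the authors' factors for length, G/C content and depth (vertical). With the factors the members spread from -2.86 to 0.23, and 9 members (triangles) were not called lower.

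The 4 named models kept a decrease with these factors. The log2 change from t1 to t2 was -2.13 (standard error 0.12) in gm1.13900_g, -1.93 (0.12) in estExt_Genemark1.C_170031, -2.10 (0.13) in gm1.16990_g and -1.66 (0.12) in gm1.16831_g. The rise of gm1.13900_g from t2 to t3 was 0.61 (0.10) with TMM and was not called with the factors, at 0.27 (0.11). The change from t2 to t4 was 1.01 (0.15) in gm1.16990_g and 1.43 (0.12) in gm1.16831_g. With the factors, gm1.16831_g at t4 stood only -0.23 (0.11) from t1 on the log2 scale and was not called lower, while TMM put it at -1.51 (0.11). Of all members 49 were called lower at t4 than at t2 with these factors (24.7% of the tested models), against 83 with TMM. Called higher were 6 (24.2%), against 5 with TMM, and only places 16, 19 and 22 were in both counts. Some members called higher only with the factors were called lower with TMM, with changes of 0.66 and 0.84 against -0.38 and -0.39. At t3 against t2 the factors left 30 called lower (15.4%), and at t4 against t3 they left 20 (9.28%).

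The names of the models carry the gene predictor and, for most, the number of the scaffold, neither of which the rule used. Names that begin with fgenesh1_kg belonged to 52 members and to 22.8% of the tested models, and all 52 also carried the name of an assembled transcript, as did 2720 of the 2741 tested models with such names. Among the tested models with at least 500 CPM at t1 the share of such names was 56.1%, and among the members at that level 41 of 60 (68.3%). A scaffold number could be read for 90 members, which lay on 43 scaffolds, 27 of them with 1 member. Scaffold 3 held 11 members of 696 tested models, scaffold 1 held 10 of 840, scaffold 2 held 7 of 494 and scaffold 6 held 6 of 323. Over all tested models with a scaffold number, 0.91% were members. Reads were aligned with a limit of 1 hit per read, so counts of models with a near-identical copy are uncertain. Members were not checked for copies.

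The models most like gm1.13900_g over the 12 libraries, by Pearson's correlation of log2(CPM + 1), differed in the size of their change. The closest model outside the members had a correlation of 0.98 and means of 291, 197, 214 and 213 CPM from t1 to t4, and the next had 0.98 and 122, 75.5, 81.3 and 83.0 CPM. Among the members the closest were in places 32 and 58, with 0.98 and 0.97. The first had means of 849, 376, 376 and 331 CPM. Both were among the 9 not called lower at t2 with the authors' factors. All points share the 12 libraries.

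The same arithmetic was applied to *Laccaria bicolor* (labelled Maire P.D.Orton), the other ectomycorrhizal fungus of the series, which reached ammonium depletion on day 13. There 1147 of 14352 tested models (7.99%) had the shape, against 392 of 12032 in *P. involutus*. The 100 models with the largest gaps had a median gap of 1.15 (interquartile range 1.06 to 1.59) in *L. bicolor*, and 1.08 (1.04 to 1.20) in *P. involutus*. Their median level at t1 was 85.2 CPM in *L. bicolor* and 609.2 CPM in *P. involutus*, and 14 and 60 of the 100 had at least 500 CPM. The tested models with at least 500 CPM at t1 numbered 235 and 287. Days of sampling, gene models and libraries differ between the fungi, so the values stand side by side with no test.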

How the data were processed

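Mycelium of *P. involutus* was harvested on 4 days, with 3 replicates per day. The authors removed ribosomal reads, aligned the rest to the gene models with TopHat2 (version 2.0.13) and counted reads on coding sequence by strand with HTSeq (version 0.6.1), and the deposited counts are not normalized. The authors also deposited, as a ratio per model and library, factors for length, G/C content and depth, and regularized log2 values made with DESeq2 (version 1.14.1). Columns were assigned by time point and replicate number. Replicates are labelled biological, without saying which culture each came from.

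Counts of models with a mean of at least 11 were tested with edgeR's quasi-likelihood test (version 4.0.16, R version 4.3.3) with TMM, fitted to all 12 *P. involutus* libraries, with Benjamini-Hochberg adjustment over all 12032 models at a false discovery rate of 1%. The study used DESeq2. With 3 libraries against 3 no 2-sided exact permutation test can go below 0.1. Standard errors came from the F statistic. The fit with TMM was tested on simulated counts with a fixed spread, and changes were simulated only in models with higher counts. Neither members at the lowest counts nor the authors' factors were covered by it. Members, lists and tests were chosen with earlier results of these data known. Alternatives were DESeq2 (version 1.42.0) and its size factors, the authors' factors, no filter, a false discovery rate of 5%, a replicate block, each library left out, a pseudocount of 0.5, and path shares of 0.5 and 0.7. Named models were the 2 with the largest gap and the 2 with the largest rise from t2 to t4. The others were picked by place, some after their values were seen. The *L. bicolor* counts served only for the same rule. Lists by function were not used here.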

Additional observations from a re-analysis of the deposited data

How the results depend on the processing

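With the authors' factors the members called lower went from 47 to 30 at t3 against t2, from 63 to 20 at t4 against t3 and from 83 to 49 at t4 against t2, and the cause was not tested. The median step at t2 was -1.11 (SD over the t2 libraries 0.07). It went to -0.93 with the factors, -1.27 with TMM-scaled CPM and -0.55 with rlog values. The rlog transform shrinks changes by construction, and the paper describes it as applied to normalized data. How much of the smaller step is shrinkage was not tested. The rule chose 31 of the members again with the factors, 29 with rlog values and 55 at a path share of 0.7. The models with the shape went from 392 to 868 with the factors, 932 with rlog values, 772 with TMM-scaled CPM, 714 at a path share of 0.5 and 193 at 0.7. All other counts and medians under DESeq2, its size factors, no filter, a false discovery rate of 5% and a pseudocount of 0.5 stayed within 1.5 times the values given or within 1 SD.

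With each library left out in turn, 23 to 53 members were called lower at t3 than at t2, 43 to 67 at t4 than at t3 and 78 to 84 at t4 than at t2, while 100 stayed lower at t2 and at t4 than at t1. Those called higher were 4 at t3 than at t2, 2 at t4 than at t3 and 4 to 5 at t4 than at t2. The rule chose 90 to 98 of the members again and found the shape in 384 to 434 models, and the median step lay between -1.14 and -1.06. In libraries that the choice did not use, the median step was -1.18 to -0.998, with a mean of -1.09.

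The replicate numbers did not pair the libraries, with correlations of deviations from -0.39 to 0.09 over 18 same-numbered pairs, and 2 of 12 libraries were closest to their own number. With a replicate block 100 members were called lower at t2, 45 at t3 than at t2, 60 at t4 than at t3 and 82 at t4 than at t2. Members at a few counts per library, such as that in place 9, are limited by depth.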
